A study of Saccharomyces cerevisiae with 12 samples.

Results

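The nuclear genes of the tricarboxylic acid (TCA) cycle and of the mitochondrial respiratory chain were followed through a pheromone experiment in Saccharomyces cerevisiae. The members were 50 genes chosen by function and named by their systematic IDs, out of 7126 genes listed in each library. They comprised 18 genes of the TCA cycle (citrate synthase, aconitase, isocitrate dehydrogenase, 2-oxoglutarate dehydrogenase, succinyl-CoA ligase, succinate dehydrogenase, fumarase and malate dehydrogenase) and 32 genes of the chain (complex III, complex IV, ATP synthase, cytochrome c and the NADH dehydrogenases NDE1 and NDI1). All 50 members were listed in every library, none stood at 0 in any library, and all 50 passed the filter on low values, a mean of at least 1 FPKM (fragments per kilobase of transcript, scaled to the mapped fragments of the library).

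The libraries came from 4 groups with 3 biological replicates each, 12 in all. MATa cells were strain MP 384, and MATα-playing-a cells were strain LBHY29, for which the series text writes MATα. Stimulated MATa and stimulated MATα-playing-a cells had received 10 nM α-factor, the peptide pheromone that a cells sense through the receptor Ste2, for 2 h at 30 °C. The unstimulated cells of each strain had been harvested from the log-phase cultures before α-factor was added. All cultures grew in YPD, a rich glucose medium, with 0.1% bovine serum albumin. Since the stimulated cells came from what remained of the cultures, α-factor and 2 h of further growth cannot be told apart in any comparison of stimulated with unstimulated cells. The alleles of LBHY29 beyond its name are not given in the sources used here.

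Marker genes were read in every library as a check of the labels. FUS1, a cell fusion gene that pheromone induces, had 2993 to 3219 FPKM in the 6 stimulated libraries and 99.7 to 196 FPKM in the 6 unstimulated ones. MATALPHA1, the α-cell activator, had 255 to 837 FPKM in MATα-playing-a libraries and 0 to 4.57 FPKM in MATa libraries, and HMRA1 was listed at 0 in MATα-playing-a libraries and had 421 to 695 FPKM in MATa libraries. The other markers of the α type were split. SAG1, the α-agglutinin gene, had 1215 to 5595 FPKM in MATα-playing-a libraries and 98.4 to 124 FPKM in MATa libraries, whereas STE3, MF(ALPHA)1 and MF(ALPHA)2 were listed at 0 in MATα-playing-a libraries and had at most 109 FPKM in MATa libraries. Of 7 a-cell genes, 6 were lower in every MATα-playing-a library than in every MATa library. The receptor gene STE2 had 512 to 1937 FPKM in MATα-playing-a libraries, against 3254 to 8483 FPKM in MATa libraries, and the pheromone gene MFA1 had 2909 to 5024 FPKM, against 5406 to 32534 FPKM. MFA2 had 116 to 221 FPKM in MATα-playing-a libraries, against 7282 to 21471 FPKM in MATa libraries, and the a-factor exporter STE6 had 22.7 to 32.7 FPKM, against 481 to 655 FPKM. AGA2 had 0 to 20 FPKM in MATα-playing-a libraries, against 997 to 10770 FPKM in MATa libraries, and ASG7 had 13 to 19.1 FPKM, against 101 to 8740 FPKM. The seventh, the α-factor protease gene BAR1, had 27.8 to 54.7 FPKM in MATα-playing-a libraries and was listed at 0 in MATa libraries. Libraries of a group correlated at 0.955 to 0.98 on the log2 scale over 12 pairs. Summed FPKM came to 5332586 to 5516177 in stimulated libraries and 5989653 to 6666550 in unstimulated ones, and 132 ribosomal protein genes held 28.1 to 29.4% of it in stimulated libraries and 33.1 to 38% in unstimulated ones. FPKM values are shares of a library's total, so the part that this shift in the summed values has in the members' changes was not tested. In bulk RNA, fewer expressing cells and less RNA per cell cannot be told apart. Sequencing depth is unknown, since only FPKM values and no counts were at hand, and the counting error behind a value cannot be given.

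As background, the TCA cycle oxidises acetyl-CoA in the mitochondrial matrix and yields NADH, succinate for succinate dehydrogenase, and precursors such as 2-oxoglutarate. Electrons from NADH and succinate pass through ubiquinone, complex III, cytochrome c and complex IV to oxygen, and the proton gradient drives ATP synthase. S. cerevisiae has no proton-pumping complex I and uses single-subunit NADH dehydrogenases instead. On glucose it ferments and holds many of these genes down. The Hap2/3/4/5 complex activates many respiratory genes, while the retrograde factors Rtg1 and Rtg3 act on the first steps of the cycle up to 2-oxoglutarate. Several steps have isozymes for another compartment or for low oxygen.

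Under α-factor most of the members were called higher, nearly all genes of the TCA cycle and a smaller share of the chain genes. A gene was called where the limma test gave a Benjamini-Hochberg adjusted p below 0.05 over the 6608 genes past the filter. In MATa cells 31 of the 50 members were called higher, where 28.5% of all tested genes were, and 1 member was called lower, where 38.1% of all tested genes were. In MATα-playing-a cells 37 members were called higher, against 29.8% of all tested genes, and 0 were called lower, against 39.1% of all tested genes. With 50 members tested, 32 in MATa and 41 in MATα-playing-a had an unadjusted p under 0.05 in either direction. Of all 6608 tested genes, 4593 in MATa and 4715 in MATα-playing-a did, so these 2 counts do not set the members apart. Of the 18 TCA cycle genes 17 were called higher in MATa and 16 in MATα-playing-a, with a median log2 change of 0.83 in each strain. Of the 32 chain genes 14 were called higher and 1 lower in MATa, and 21 were called higher in MATα-playing-a, with median log2 changes of 0.25 and 0.39. The median of all tested genes was -0.09 in MATa and -0.10 in MATα-playing-a. Rises of at least 2-fold among called genes were reached by 8 of 18 TCA cycle genes and 4 of 32 chain genes in each strain. Of all 6608 tested genes, 646 in MATa and 738 in MATα-playing-a reached that, a share near that of the chain genes. Counting succinate dehydrogenase, which belongs to both pathways, with the chain gave medians of 0.83 and 0.81 for the 14 remaining cycle genes and 0.29 and 0.41 for the 36 chain genes. All changes are differences of log2(FPKM + 1). Gene length here is the span between the listed start and end coordinates, with any intron included. The median length was 454 nucleotides (nt) for chain genes and 1209 nt for cycle genes. Of all tested genes, 20.2% of those under 500 nt and 31% of those of 1000 nt or more were called higher in MATa. The shares in MATα-playing-a were 27.2% and 28.6%. Median changes in the 2 strains were 0.30 and 0.34 for the 6 chain genes of 1000 nt or more. They were 0.98 and 0.96 for the 4 cycle genes of under 1000 nt. The part that length has in these counts was not tested.

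**Figure D1:**
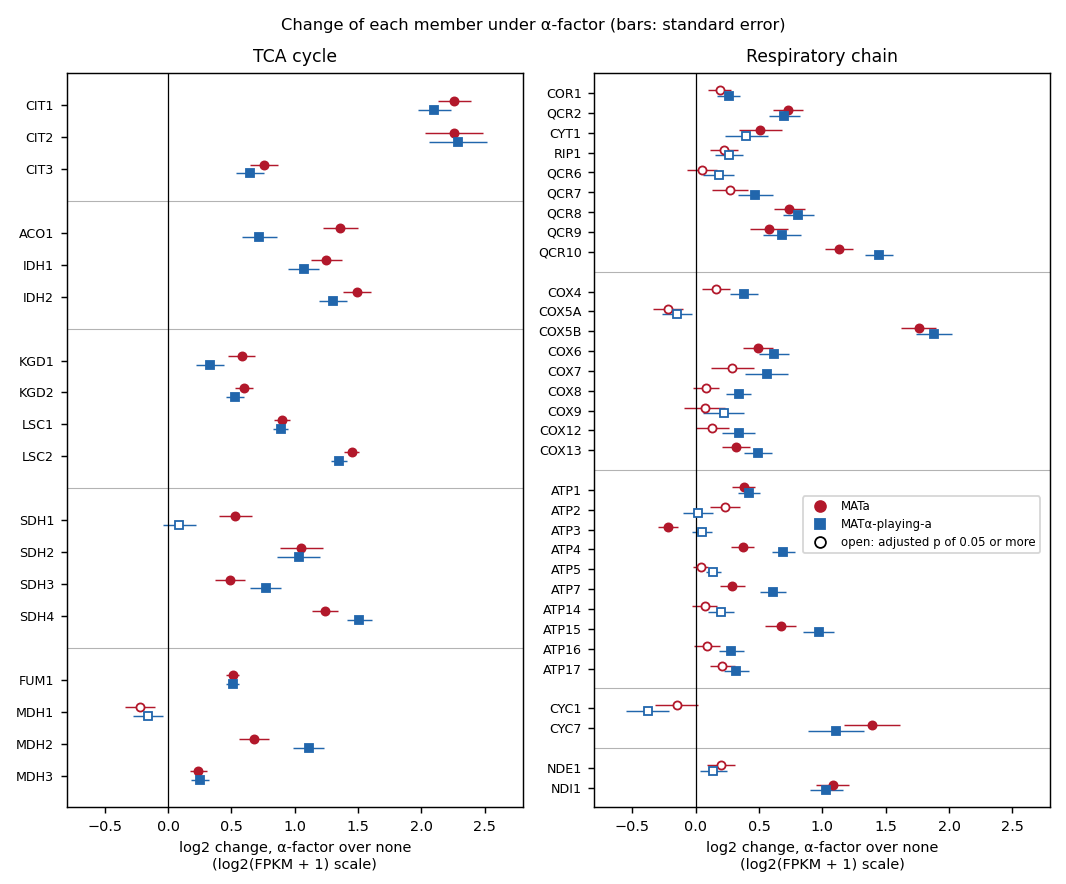
Log2 change under α-factor for each of the 18 TCA cycle genes and 32 respiratory chain genes, stimulated over unstimulated cells, on the log2(FPKM + 1) scale. Circles are MATa and squares MATα-playing-a, bars are standard errors from the limma fit, open symbols did not pass an adjusted p of 0.05, and grey lines separate enzyme classes. CIT1, CIT2 and COX5B lie farthest to the right in both strains.

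The members' share of the summed FPKM was higher in stimulated cells. These shares rest on the same FPKM values as the changes above and are not separate support for them. The total they are divided by was at most 5516177 in stimulated and at least 5989653 in unstimulated libraries, and a lower total by itself raises a share. TCA cycle genes held 0.369, 0.375 and 0.349% in stimulated MATa, against 0.143, 0.155 and 0.13% in unstimulated MATa. In MATα-playing-a they held 0.362, 0.346 and 0.338% in stimulated libraries, against 0.176, 0.151 and 0.15% in unstimulated ones. Chain genes held 0.985, 1.04 and 0.885% in stimulated MATa, against 0.678, 0.669 and 0.611% in unstimulated MATa. No stimulated library overlapped an unstimulated one for either pathway. In MATα-playing-a the chain's share was 1.125, 1.078 and 1.046% in stimulated libraries, against 0.759, 0.665 and 0.727% in unstimulated ones.

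**Figure D2:**
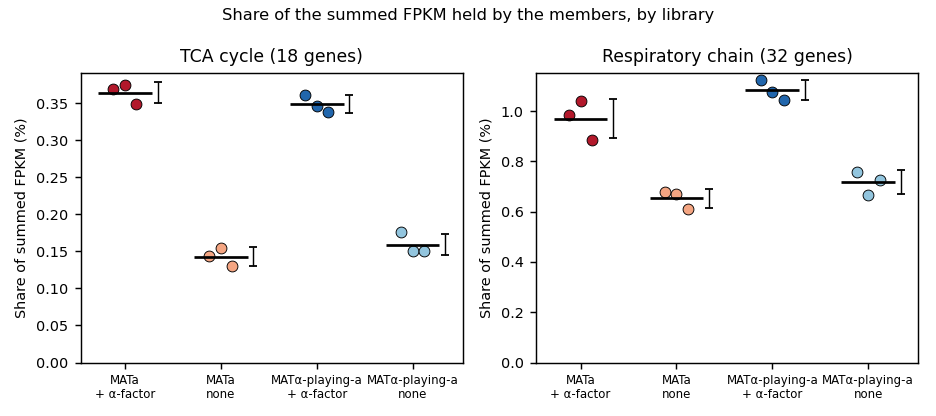
Share of each library's summed FPKM, in percent, held by the 18 TCA cycle genes (left) and the 32 respiratory chain genes (right), with both axes starting at 0. Points are libraries, lines are group means and bars are 1 SD (n = 3 per group). Stimulated libraries held 0.338 to 0.375% in cycle genes and unstimulated ones 0.13 to 0.176%. The summed FPKM was lower in every stimulated library than in every unstimulated one.

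The entry step of the cycle moved most. Citrate synthase joins acetyl-CoA to oxaloacetate, and S. cerevisiae has 3 genes for it: CIT1 (YNR001C) and CIT3 (YPR001W) for mitochondria and CIT2 (YCR005C) for the peroxisome, where it serves the glyoxylate cycle. CIT1 had 1422, 1542 and 1415 FPKM in stimulated MATa, against 329, 321 and 265 FPKM in unstimulated MATa. CIT1 had 1327, 1288 and 1208 FPKM in stimulated MATα-playing-a, against 372, 254 and 276 FPKM in unstimulated MATα-playing-a. The groups lay far apart in each strain, with log2 changes of 2.26 (SE 0.13, adjusted p = 5.46e-08) in MATa and 2.10 (SE 0.13, adjusted p = 9.64e-08) in MATα-playing-a, or 4.79 and 4.28 times as high. CIT2 had 1236, 1324 and 1232 FPKM in stimulated MATa, against 318, 338 and 170 FPKM in unstimulated MATa. In MATα-playing-a CIT2 had 926, 1064 and 955 FPKM in stimulated libraries, against 253, 160 and 195 FPKM in unstimulated ones. CIT2 rose by 2.26 (SE 0.23, adjusted p = 5.23e-06) in MATa and 2.29 (SE 0.23, adjusted p = 4.42e-06) in MATα-playing-a, and its unstimulated values varied more between libraries. CIT1 made up 53.6% ± 0.18 of the FPKM of CIT1 and CIT2 in stimulated MATa and 53.5% ± 6.5 in unstimulated MATa (SD, n = 3 each). CIT3 was the lowest of the 50 members in every group. It had 72.8, 74.2 and 68.4 FPKM in stimulated MATa, against 42.1, 38.3 and 45.9 FPKM in unstimulated MATa. CIT3 had 61.8, 82.7 and 68.8 FPKM in stimulated MATα-playing-a, against 43.9, 46.1 and 43.8 FPKM in unstimulated MATα-playing-a. Its rise was smaller, 0.76 (SE 0.11, adjusted p = 8.88e-05) in MATa and 0.65 (SE 0.11, adjusted p = 0.000277) in MATα-playing-a.

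The 300 bases before the start codons of CIT1 and CIT2, the members with the largest changes, are shown from the R64 reference on the coding strand, 5′ to 3′, ending at the base before the start codon. Capitals mark matches, on either strand, to 5 short motifs of factors known to act on respiratory, stress or mating genes: CCAAT (the Hap2/3/4/5 complex), AGGGG (the stress factors Msn2 and Msn4), TGAAACA (the mating factor Ste12), GTCAC (Rtg1 and Rtg3) and ATTGTT (the hypoxic repressor Rox1). The CIT1 window lay at chrXIV:631062-631361, minus strand, and the CIT2 window at chrIII:122329-122628, minus strand.
CIT1: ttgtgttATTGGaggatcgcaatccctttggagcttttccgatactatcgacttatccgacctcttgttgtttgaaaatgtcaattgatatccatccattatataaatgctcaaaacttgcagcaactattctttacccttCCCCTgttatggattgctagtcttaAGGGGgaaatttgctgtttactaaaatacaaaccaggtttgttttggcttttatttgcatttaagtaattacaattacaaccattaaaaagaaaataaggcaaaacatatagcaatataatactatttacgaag
CIT2: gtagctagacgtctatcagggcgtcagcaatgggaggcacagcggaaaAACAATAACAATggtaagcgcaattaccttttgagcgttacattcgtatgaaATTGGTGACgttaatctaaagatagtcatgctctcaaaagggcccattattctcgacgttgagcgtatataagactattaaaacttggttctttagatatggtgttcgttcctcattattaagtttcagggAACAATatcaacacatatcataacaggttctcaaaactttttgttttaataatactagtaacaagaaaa
CIT1 held 1 Hap2/3/4/5 match, whose first base lay 293 bases before the start, and 2 Msn2/4 matches, at 159 and 134 bases. CIT2 held a Hap2/3/4/5 match at 200 bases that overlapped an Rtg1/3 match at 196 bases by 1 base, and 3 Rox1 matches at 252, 246 and 69 bases. A match is only a run of letters, and neither promoter held TGAAACA in these windows.

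Further round the cycle, aconitase and isocitrate dehydrogenase also rose in both strains. Aconitase (ACO1, YLR304C) turns citrate into isocitrate. ACO1 had 3116, 2731 and 2630 FPKM in stimulated MATa, against 1095, 1355 and 892 FPKM in unstimulated MATa. In MATα-playing-a ACO1 had 2519, 1995 and 2602 FPKM in stimulated libraries, against 1521, 1369 and 1401 FPKM in unstimulated ones. The groups did not overlap in either strain, with changes of 1.36 (SE 0.14, adjusted p = 7.23e-06) in MATa and 0.72 (SE 0.14, adjusted p = 0.00089) in MATα-playing-a. IDH1 (YNL037C) and IDH2 (YOR136W) encode the subunits of the NAD-dependent isocitrate dehydrogenase. IDH2 had 2220, 2683 and 2385 FPKM in stimulated MATa, against 843, 991 and 766 FPKM in unstimulated MATa. IDH2 had 2161, 2087 and 1842 FPKM in stimulated MATα-playing-a, against 913, 740 and 816 FPKM in unstimulated MATα-playing-a. That was a rise of 1.49 (SE 0.11, adjusted p = 5.4e-07) in MATa and of 1.30 (SE 0.11, adjusted p = 1.48e-06) in MATα-playing-a, and IDH1 rose by 1.25 and 1.07. IDH2 overlaps another listed gene, YOR135C, whose reads cannot be told from its own without knowing their strand.

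All 4 genes of the middle of the cycle rose in both strains, the β subunit of succinyl-CoA ligase by the most. The E1 and E2 subunits of 2-oxoglutarate dehydrogenase, KGD1 (YIL125W) and KGD2 (YDR148C), rose by 0.58 and 0.60 in MATa and by 0.33 and 0.53 in MATα-playing-a. The KGD1 call in MATα-playing-a was lost without stimulated replicate 1 (0.28) or 3 (0.26) and without unstimulated replicate 2 (0.33) or 3 (0.30). Succinyl-CoA ligase makes the cycle's only ATP directly, with LSC1 (YOR142W) as α and LSC2 (YGR244C) as β subunit. LSC2 had 1107, 1039 and 1032 FPKM in stimulated MATa, against 393, 409 and 363 FPKM in unstimulated MATa. LSC2 had 1075, 1133 and 1146 FPKM in stimulated MATα-playing-a, against 456, 424 and 436 FPKM in unstimulated MATα-playing-a. With changes of 1.45 (SE 0.06, adjusted p = 4.84e-09) and 1.35 (SE 0.06, adjusted p = 8.99e-09), LSC2 had the smallest adjusted p among the members in both strains. LSC1 had 1320, 1384 and 1304 FPKM in stimulated MATa, against 712, 722 and 713 FPKM in unstimulated MATa. In MATα-playing-a LSC1 had 1412, 1371 and 1335 FPKM in stimulated libraries, against 788, 691 and 740 FPKM in unstimulated ones. LSC1 was higher than LSC2 in all 4 groups, with rises of 0.90 (SE 0.06, adjusted p = 1.27e-07) in MATa and 0.89 (SE 0.06, adjusted p = 1.34e-07) in MATα-playing-a.

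Succinate dehydrogenase, complex II of the chain as well as a cycle enzyme, moved unevenly across its 4 subunits. The membrane anchor subunit SDH4 (YDR178W) had 1116, 1131 and 877 FPKM in stimulated MATa, against 432, 447 and 429 FPKM in unstimulated MATa. SDH4 had 1382, 1306 and 1182 FPKM in stimulated MATα-playing-a, against 482, 406 and 474 FPKM in unstimulated MATα-playing-a. All stimulated libraries lay above all unstimulated ones, with changes of 1.24 (SE 0.10, adjusted p = 1.15e-06) and 1.51 (SE 0.10, adjusted p = 2.54e-07). The iron-sulphur subunit SDH2 (YLL041C) had 940, 946 and 652 FPKM in stimulated MATa, against 465, 436 and 318 FPKM in unstimulated MATa. In MATα-playing-a SDH2 had 988, 860 and 863 FPKM in stimulated libraries, against 495, 387 and 448 FPKM in unstimulated ones. It rose by 1.05 (SE 0.17, adjusted p = 0.000197) in MATa and 1.03 (SE 0.17, adjusted p = 0.000222) in MATα-playing-a, with replicate 3 the lowest in both MATa groups. The other anchor subunit, SDH3 (YKL141W), rose by 0.49 and 0.77. The flavoprotein subunit SDH1 (YKL148C) rose by 0.53 (SE 0.13, adjusted p = 0.00358) in MATa and had a change of 0.09 (SE 0.13, adjusted p = 0.553) in MATα-playing-a, where the groups overlapped.

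Of the last steps, fumarase and the malate dehydrogenases outside mitochondria rose, and the mitochondrial malate dehydrogenase did not pass. Fumarase (FUM1, YPL262W), which works in mitochondria and the cytosol, had 1121, 1142 and 1087 FPKM in stimulated MATa, against 741, 831 and 781 FPKM in unstimulated MATa. FUM1 had 1120, 1080 and 1102 FPKM in stimulated MATα-playing-a, against 775, 765 and 780 FPKM in unstimulated MATα-playing-a. It rose by 0.51 in each strain (SE 0.05, adjusted p = 6.25e-06 and 6.3e-06). MDH2 (YOL126C), the cytosolic malate dehydrogenase used in gluconeogenesis, had 319, 367 and 323 FPKM in stimulated MATa, against 199, 234 and 194 FPKM in unstimulated MATa. In MATα-playing-a MDH2 had 419, 479 and 392 FPKM in stimulated libraries, against 185, 180 and 231 FPKM in unstimulated ones. It rose by 0.68 (SE 0.12, adjusted p = 0.000286) and 1.11 (SE 0.12, adjusted p = 5.99e-06), with no overlap between groups. The peroxisomal MDH3 (YDL078C) had 827, 905 and 802 FPKM in stimulated MATa, against 739, 721 and 683 FPKM in unstimulated MATa. MDH3 had 831, 877 and 755 FPKM in stimulated MATα-playing-a, against 726, 642 and 696 FPKM in unstimulated MATα-playing-a. Its rises were small, 0.24 (SE 0.07, adjusted p = 0.0141) and 0.25 (SE 0.07, adjusted p = 0.0101), and without stimulated replicate 2 or unstimulated replicate 3 the MATa value, 0.19 or 0.21, no longer passed. The mitochondrial MDH1 (YKL085W) had 585, 668 and 560 FPKM in stimulated MATa, against 689, 741 and 675 FPKM in unstimulated MATa. In MATα-playing-a MDH1 had 713, 675 and 580 FPKM in stimulated libraries, against 848, 610 and 754 FPKM in unstimulated ones. Its changes of -0.22 (SE 0.12, adjusted p = 0.129) and -0.16 (SE 0.12, adjusted p = 0.254) did not pass, and without unstimulated replicate 2 the MATα-playing-a change was called lower, at -0.29. MDH2 made up 35.8% ± 0.71 of the FPKM of MDH1 and MDH2 in stimulated MATa and 22.9% ± 0.95 in unstimulated MATa, and 39.6% ± 2.3 in stimulated and 21.4% ± 3 in unstimulated MATα-playing-a (SD, n = 3 each).

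**Figure D3:**
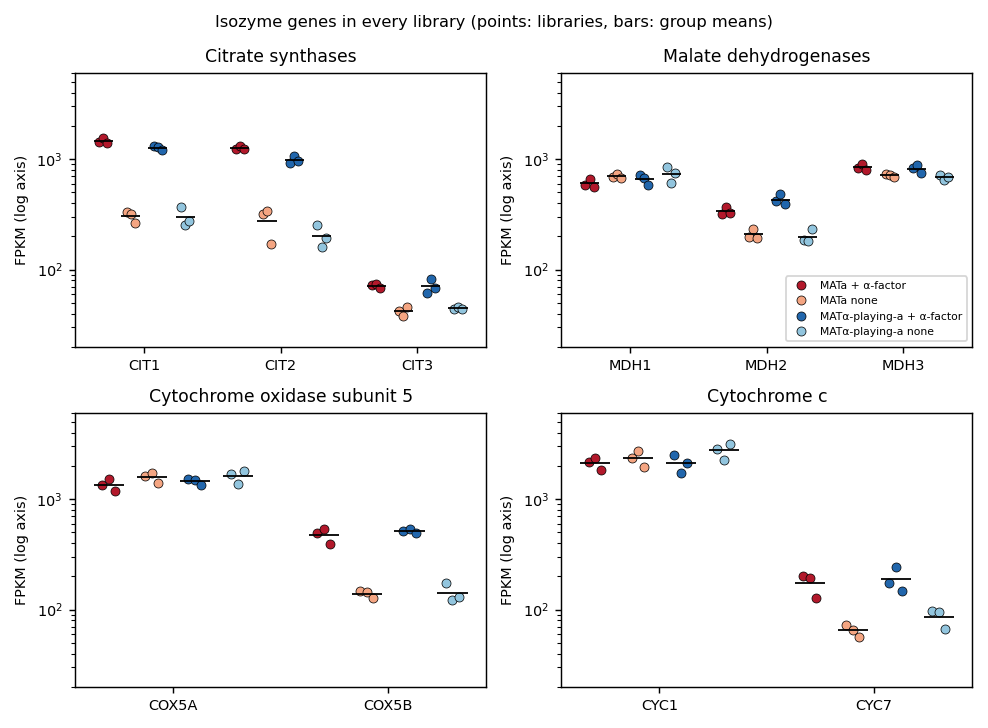
FPKM, on log axes, of the isozyme genes in every library. Points are libraries and bars are means of 3 libraries, with dark points for stimulated and light points for unstimulated cells, red for MATa and blue for MATα-playing-a. CIT1, CIT2, CIT3, MDH2, MDH3, COX5B and CYC7 had no overlap between stimulated and unstimulated libraries in either strain, whereas CYC1 and COX5A overlapped in both strains. MDH1 overlapped in MATα-playing-a and not in MATa, where the stimulated libraries were the lower ones.

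In the chain, COX5B and CYC7, the less abundant members of paralog pairs, and the complex III subunit QCR10 had the largest changes in both strains. Subunit Va of complex IV comes from COX5A (YNL052W), the form made in air, and subunit Vb from COX5B (YIL111W), the form known for low oxygen. COX5B had 495, 542 and 395 FPKM in stimulated MATa, against 147, 144 and 126 FPKM in unstimulated MATa. COX5B had 516, 540 and 493 FPKM in stimulated MATα-playing-a, against 174, 121 and 130 FPKM in unstimulated MATα-playing-a. The rise was 1.76 (SE 0.14, adjusted p = 8.29e-07) in MATa and 1.88 (SE 0.14, adjusted p = 5.15e-07) in MATα-playing-a, 3.39 and 3.67 times as high. COX5A had 1348, 1530 and 1176 FPKM in stimulated MATa, against 1608, 1708 and 1393 FPKM in unstimulated MATa. In MATα-playing-a COX5A had 1514, 1497 and 1341 FPKM in stimulated libraries, against 1689, 1367 and 1780 FPKM in unstimulated ones. Those groups overlapped in each strain, and the changes of -0.22 (SE 0.12, adjusted p = 0.134) and -0.15 (SE 0.12, adjusted p = 0.309) did not pass. COX5B made up 26.9, 26.1 and 25.1% of the pair's FPKM in stimulated MATa, against 8.39, 7.79 and 8.29% in unstimulated MATa. It made up 25.4, 26.5 and 26.9% of the pair in stimulated MATα-playing-a, against 9.32, 8.11 and 6.83% in unstimulated MATα-playing-a. COX5A stayed the more abundant form in every library.

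Cytochrome c, the mobile carrier between complexes III and IV, showed the same arrangement. CYC7 (YEL039C), the minor isoform, had 201, 193 and 128 FPKM in stimulated MATa, against 72, 65.3 and 57 FPKM in unstimulated MATa. CYC7 had 174, 244 and 146 FPKM in stimulated MATα-playing-a, against 97, 94.5 and 66.3 FPKM in unstimulated MATα-playing-a. It rose by 1.39 (SE 0.22, adjusted p = 0.000191) and 1.11 (SE 0.22, adjusted p = 0.000955), with no overlap between groups. CYC1 (YJR048W), the major isoform, had 2158, 2351 and 1829 FPKM in stimulated MATa, against 2361, 2743 and 1974 FPKM in unstimulated MATa. In MATα-playing-a CYC1 had 2528, 1741 and 2118 FPKM in stimulated libraries, against 2873, 2252 and 3153 FPKM in unstimulated ones. The CYC1 groups overlapped, and the changes of -0.15 (SE 0.17, adjusted p = 0.445) and -0.38 (SE 0.17, adjusted p = 0.0689) did not pass. Without stimulated replicate 1 or unstimulated replicate 2 the MATα-playing-a change was called lower, at -0.51 or -0.52. CYC7 made up 8.54, 7.6 and 6.53% of the FPKM of the CYC1 and CYC7 pair in stimulated MATa, against 2.96, 2.33 and 2.81% in unstimulated MATa. In MATα-playing-a it made up 6.45, 12.3 and 6.43% in stimulated libraries, with replicate 2 well above the other two, against 3.27, 4.03 and 2.06% in unstimulated ones.

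The same windows of 300 bases before the start codon are shown for both pairs, since 1 gene of each pair was called higher and the other did not pass. They lay at chrXIV:531425-531724, plus strand, for COX5A, at chrIX:154922-155221, plus strand, for COX5B, at chrX:526035-526334, plus strand, for CYC1, and at chrV:79978-80277, minus strand, for CYC7.
COX5A: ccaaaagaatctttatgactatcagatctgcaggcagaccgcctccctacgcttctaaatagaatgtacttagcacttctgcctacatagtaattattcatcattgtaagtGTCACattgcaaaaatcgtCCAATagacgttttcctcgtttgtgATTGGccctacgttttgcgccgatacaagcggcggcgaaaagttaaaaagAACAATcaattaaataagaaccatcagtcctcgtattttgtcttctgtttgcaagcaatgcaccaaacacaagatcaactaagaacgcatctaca
COX5B: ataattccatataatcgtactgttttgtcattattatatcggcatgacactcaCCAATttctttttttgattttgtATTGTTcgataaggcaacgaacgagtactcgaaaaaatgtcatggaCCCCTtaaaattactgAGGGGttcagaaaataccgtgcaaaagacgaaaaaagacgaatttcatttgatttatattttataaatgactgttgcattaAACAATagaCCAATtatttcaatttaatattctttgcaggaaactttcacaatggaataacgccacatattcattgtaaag
CYC1: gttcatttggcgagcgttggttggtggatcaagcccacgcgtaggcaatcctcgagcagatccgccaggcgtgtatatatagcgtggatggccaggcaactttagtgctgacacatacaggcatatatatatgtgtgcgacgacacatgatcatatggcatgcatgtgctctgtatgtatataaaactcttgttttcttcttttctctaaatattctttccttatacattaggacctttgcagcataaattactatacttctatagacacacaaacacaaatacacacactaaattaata
CYC7: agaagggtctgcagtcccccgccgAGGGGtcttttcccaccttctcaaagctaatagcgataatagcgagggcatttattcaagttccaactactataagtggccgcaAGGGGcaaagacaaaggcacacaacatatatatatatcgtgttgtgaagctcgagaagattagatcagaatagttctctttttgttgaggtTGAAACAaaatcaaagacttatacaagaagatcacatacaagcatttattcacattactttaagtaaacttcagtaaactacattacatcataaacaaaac
COX5B held 2 Hap2/3/4/5 matches, at 247 and 72 bases before the start, 2 Rox1 matches, at 224 and 81 bases, and 2 Msn2/4 matches, at 178 and 162 bases. COX5A held 2 Hap2/3/4/5 matches, at 170 and 145 bases, 1 Rtg1/3 match at 189 bases, 1 Rox1 match at 95 bases and no AGGGG. CYC7 held 2 Msn2/4 matches, at 276 and 192 bases, and a Ste12 match at 101 bases, and CYC1 held no exact match to any of the 5 motifs in this window. Variants of the motifs were not searched for, so a site with other letters would be missed. Within 500 bases before the start, CCAAT was found for 45 of the 50 members (90%) and 62.4% of 6000 genes with such a window, and AGGGG for 14 of 18 TCA cycle genes (77.8%), 15 of 32 chain genes (46.9%) and 34.1% of the 6000. GTCAC was found for 58% of members and 42.5% of the 6000, ATTGTT for 56% and 48.9%, and TGAAACA for 4% and 12%. Such matches are a description of letters and do not show that a factor was bound.

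Complex III passes electrons from ubiquinol to cytochrome c. Of its 9 members 5 (55.6%) were called higher in MATa and 6 (66.7%) in MATα-playing-a, against 28.5% and 29.8% of all tested genes. The small subunit QCR10 (YHR001W-A) had 1613, 1773 and 1398 FPKM in stimulated MATa, against 739, 759 and 682 FPKM in unstimulated MATa. QCR10 had 1889, 1816 and 1737 FPKM in stimulated MATα-playing-a, against 722, 552 and 732 FPKM in unstimulated MATα-playing-a. It had the largest changes of its complex, rises of 1.13 (SE 0.11, adjusted p = 4.83e-06) and 1.45 (SE 0.11, adjusted p = 6.68e-07). QCR8 (YJL166W), next to the cytochrome b subunit, had 2244, 2296 and 1835 FPKM in stimulated MATa, against 1275, 1378 and 1143 FPKM in unstimulated MATa. In MATα-playing-a QCR8 had 2523, 2434 and 2347 FPKM in stimulated libraries, against 1471, 1180 and 1547 FPKM in unstimulated ones. It rose by 0.74 (SE 0.12, adjusted p = 0.000143) and 0.81 (SE 0.12, adjusted p = 7.31e-05). The core subunit QCR2 (YPR191W) rose by 0.73 and 0.70, and QCR9 (YGR183C) by 0.58 and 0.68. Of the redox subunits, CYT1 (YOR065W), cytochrome c1, rose by 0.51 (adjusted p = 0.0213) in MATa and had a change of 0.40 (adjusted p = 0.0571) in MATα-playing-a. The MATa call on CYT1 was lost without stimulated replicate 2 (0.38) or unstimulated replicate 1 (0.43) or 3 (0.49), and CYT1 was called higher in MATα-playing-a under 5 alternatives, median ratios (0.50) and a replicate block by culture (0.40) among them. The Rieske iron-sulphur protein RIP1 (YEL024W) had changes of 0.22 and 0.26, and QCR6 (YFR033C) of 0.05 and 0.18, none of which passed. RIP1 was called higher in both strains under median ratios (0.31 and 0.36), with a replicate block by culture (0.22 and 0.26) and without stimulated MATa replicate 3 (0.31 and 0.26). COR1 (YBL045C), the other core subunit, and QCR7 (YDR529C) passed in MATα-playing-a, with changes of 0.26 and 0.47 there and of 0.19 and 0.27 in MATa that did not pass. The COR1 call was lost without stimulated replicate 1 (0.18) or unstimulated replicate 2 (0.21) and after quantile normalisation (0.19). In MATa COR1 was called higher without stimulated replicate 3 or unstimulated replicate 2 (0.25 each), with a replicate block by culture (0.19), under median ratios (0.28) and after quantile normalisation (0.22), and QCR7 without stimulated replicate 3 (0.40) or unstimulated replicate 1 (0.37) and under median ratios (0.36).

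In complex IV, cytochrome c oxidase, 3 of 9 members (33.3%) were called higher in MATa, near the 28.5% of all tested genes. In MATα-playing-a 7 (77.8%) were, against 29.8% of all tested genes. By genomic span, with any intron included, all members but COX5B were under 500 nt. Of all tested genes with such a span, 20.2% were called higher in MATa and 27.2% in MATα-playing-a. In the difference of the responses 0 of the 9 passed. The called members beside COX5B were COX6 (YHR051W) and COX13 (YGL191W) in both strains, and COX4 (YGL187C), COX7 (YMR256C), COX8 (YLR395C) and COX12 (YLR038C) in MATα-playing-a. COX6 had 1943, 2271 and 1675 FPKM in stimulated MATa, against 1539, 1404 and 1244 FPKM in unstimulated MATa. COX6 had 2259, 2360 and 1965 FPKM in stimulated MATα-playing-a, against 1498, 1350 and 1437 FPKM in unstimulated MATα-playing-a. It rose by 0.49 (SE 0.12, adjusted p = 0.00306) and 0.62 (SE 0.12, adjusted p = 0.000579). The changes of COX4, COX7, COX8 and COX12 were 0.38, 0.56, 0.34 and 0.34 in MATα-playing-a and 0.16, 0.29, 0.08 and 0.13 in MATa. COX9 (YDL067C) passed in neither strain, with changes of 0.07 and 0.22, although the MATα-playing-a change was called higher with the MATα-playing-a libraries fitted alone. COX13 rose by 0.32 (adjusted p = 0.0267) in MATa and by 0.49 in MATα-playing-a. Its MATa call was lost without stimulated replicate 1 (0.28) or 2 (0.24) and without unstimulated replicate 2 (0.29) or 3 (0.30). In MATa COX7 was called higher without stimulated replicate 3 (0.45) or unstimulated replicate 1 (0.44). In MATα-playing-a the COX7 call was lost without unstimulated replicate 2 (0.43), and the COX12 call without stimulated replicate 1 (0.35) or 2 (0.29) or unstimulated replicate 2 (0.20). The COX12 call was also lost after quantile normalisation (0.25) and with the MATα-playing-a libraries fitted alone (0.34).

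ATP synthase, which makes ATP from the proton gradient, had no change of 2-fold or more. In MATa 4 of 10 members (40%) were called higher and 1 lower, where 28.5% and 38.1% of all tested genes were. In MATα-playing-a 6 (60%) were called higher, where 29.8% of all tested genes were. ATP15 (YPL271W), the ε subunit of the central stalk, had 2822, 3321 and 2834 FPKM in stimulated MATa, against 1904, 1896 and 1816 FPKM in unstimulated MATa. ATP15 had 3601, 3062 and 3343 FPKM in stimulated MATα-playing-a, against 1725, 1411 and 2005 FPKM in unstimulated MATα-playing-a. It rose by 0.67 (SE 0.12, adjusted p = 0.000332) and 0.97 (SE 0.12, adjusted p = 1.82e-05) and was the highest member of all in both stimulated groups. ATP4 (YPL078C), subunit b of the peripheral stalk, had 1646, 1958 and 1715 FPKM in stimulated MATa, against 1346, 1357 and 1394 FPKM in unstimulated MATa. In MATα-playing-a ATP4 had 2283, 2150 and 2016 FPKM in stimulated libraries, against 1449, 1172 and 1392 FPKM in unstimulated ones. The rises were 0.37 (SE 0.09, adjusted p = 0.00324) and 0.69 (SE 0.09, adjusted p = 3.56e-05). ATP7 (YKL016C), subunit d of the peripheral stalk, rose by 0.29 (adjusted p = 0.0295) and 0.61 (adjusted p = 0.00027), and the MATa call was lost without stimulated replicate 2 (0.19) or unstimulated replicate 2 (0.27) or 3 (0.28), and with a replicate block (0.29), by number or by culture. Of the catalytic head, ATP1 (YBL099W), the α subunit, rose by 0.38 and 0.42 and overlaps the listed gene YBL100C, while ATP2 (YJR121W), the β subunit, had changes of 0.23 and 0.02 that did not pass, the MATa change being called higher under median ratios or quantile normalisation (0.32 each) and without stimulated MATα-playing-a replicate 2 (0.23). ATP3 (YBR039W), the γ subunit, was the 1 member called lower: it had 983, 1131 and 977 FPKM in stimulated MATa, against 1171, 1282 and 1146 FPKM in unstimulated MATa, a change of -0.22 (SE 0.08, adjusted p = 0.0355). That call was lost without stimulated replicate 1 (-0.19) or 3 (-0.18), without unstimulated replicate 1 (-0.24) or 2 (-0.17), and under rescaling by median ratios (-0.13). In MATα-playing-a ATP3 had a change of 0.05 that did not pass. ATP16 (YDL004W), the δ subunit, and ATP17 (YDR377W), subunit f, rose by 0.28 and 0.32 in MATα-playing-a and had changes of 0.09 and 0.21 in MATa. Without unstimulated replicate 2 of MATα-playing-a, neither passed (0.19 and 0.27), nor did they without stimulated replicate 2 (0.25 and 0.24), and ATP16 was also lost without unstimulated replicate 1 (0.26). After quantile normalisation both MATα-playing-a calls were lost too (0.18 for ATP16 and 0.23 for ATP17). In MATa ATP17 was called higher without unstimulated replicate 1 or under median ratios (0.30 each). ATP5 (YDR298C), the subunit that confers oligomycin sensitivity, and ATP14 (YLR295C), subunit h, passed in neither strain, with changes of 0.04 to 0.20, though under median ratios ATP14 (0.30) and ATP5 (0.24) were called higher in MATα-playing-a. ATP14, which overlaps the listed gene YLR294C, was also called higher there with the MATα-playing-a libraries fitted alone (0.20). ATP5 was so called there without stimulated replicate 3 (0.17) too, or without stimulated MATa replicate 3 (0.14).

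Of the NADH dehydrogenases, NDI1 rose in both strains. NDI1 (YML120C) takes NADH from the matrix, and it had 535, 586 and 491 FPKM in stimulated MATa, against 265, 283 and 218 FPKM in unstimulated MATa. NDI1 had 597, 525 and 526 FPKM in stimulated MATα-playing-a, against 305, 220 and 289 FPKM in unstimulated MATα-playing-a. It rose by 1.08 (SE 0.13, adjusted p = 2.25e-05) and 1.03 (SE 0.13, adjusted p = 3.19e-05). NDE1 (YMR145C), which takes cytosolic NADH, had 1932, 2005 and 1907 FPKM in stimulated MATa, against 1531, 2094 and 1506 FPKM in unstimulated MATa. In MATα-playing-a NDE1 had 2215, 1991 and 2229 FPKM in stimulated libraries, against 1844, 1985 and 2011 FPKM in unstimulated ones. NDE1 remained the more abundant of the pair, and its changes of 0.20 (SE 0.11, adjusted p = 0.121) and 0.14 (SE 0.11, adjusted p = 0.28) did not pass. Without unstimulated replicate 2, the highest of its group, the MATa change was 0.36 and was called higher, as it was under rescaling by median ratios (0.30).

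Across strains, 29 members were called higher in both, 2 (CYT1 and SDH1) in MATa alone, 8 in MATα-playing-a alone, and 10 were called higher in neither and lower in neither; a call in a single strain does not show that the strains differ. The difference of the responses was tested for every gene, and 0 of the 50 members passed by limma, where 0.484% of all tested genes did. At an unadjusted p under 0.05 there were 6 such members: ATP3, ATP4, ATP7 and MDH2 with larger values in MATα-playing-a, and ACO1 and SDH1 with larger values in MATa. Of all 6608 tested genes, 771 had such a p, a share near that of the members. ACO1 had the widest difference of responses, -0.64 (SE 0.20, adjusted p = 0.297). Values in MATα-playing-a were larger than in MATa for 25 of 32 chain genes and 6 of 18 cycle genes, with median differences of 0.12 and -0.04, against 0.02 for all tested genes. The chain median was 0.03 without stimulated MATa replicate 3, 0.06 without unstimulated MATa replicate 1 or unstimulated MATα-playing-a replicate 2, 0.02 after quantile normalisation, and 0.19 without stimulated MATa replicate 2 or unstimulated MATa replicate 3. With 1 library left out, 19 to 28 chain genes and 3 to 10 cycle genes had the larger value in MATα-playing-a. The cycle median then lay between -0.12 and 0.00. Gene length moved with this difference. All tested genes of under 500 nt had a median difference of 0.17, those of 500 to 1000 nt 0.12 and those of 1000 nt or more -0.06, and the median length was 454 nt for chain genes and 1209 nt for cycle genes. The 6 chain genes of 1000 nt or more had a median difference of -0.04 and the 4 cycle genes of under 1000 nt a median of 0.13. The part that length has in the difference between the pathways was not tested.

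Between the strains themselves no member passed. With α-factor, MATα-playing-a minus MATa gave 0 called members by limma, where 2.21% of all tested genes were called. An unadjusted p under 0.05 was found for 7 of the 50 members and for 744 of all 6608 tested genes. Chain genes had a median difference of 0.16, with 31 of 32 above 0, and cycle genes of -0.02. Without stimulated MATa replicate 3 the chain median was 0.06, with 26 of 32 above 0, and the cycle median ranged from -0.05 to 0.03 with 1 library left out. Gene length moved with this difference too: all tested genes of under 500 nt had a median of 0.09, with 951 of 1425 above 0, and those of 1000 nt or more a median of -0.03. The smallest adjusted p was that of ATP3, which averaged 1246 FPKM in stimulated MATα-playing-a and 1030 FPKM in stimulated MATa, a difference of 0.28 (SE 0.08, adjusted p = 0.177). Without α-factor, 0 members were called, where 0.953% of all tested genes were. An unadjusted p under 0.05 was found there for 3 of the 50 members and for 825 of all 6608 tested genes. The medians were 0.03 for chain genes and 0.05 for cycle genes, and with 1 library left out they ranged from -0.02 to 0.11 and from -0.01 to 0.09. SDH1 had the smallest adjusted p there, with 396 FPKM in unstimulated MATα-playing-a and 300 FPKM in unstimulated MATa, a difference of 0.41 (SE 0.13, adjusted p = 0.256).

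Genes next to these pathways did not all follow. Of 12 further enzymes at and around the cycle, 6 were called higher and 1 lower in MATa, and 7 higher and 2 lower in MATα-playing-a. Of all tested genes 28.5% were called higher and 38.1% lower in MATa, and 29.8% and 39.1% in MATα-playing-a. PYC1, a pyruvate carboxylase that refills oxaloacetate, rose by 1.12 (adjusted p = 0.000793) and 0.92 (adjusted p = 0.00288), and the cytosolic isocitrate dehydrogenase IDP2 by 1.64 (adjusted p = 9.84e-06) and 1.94 (adjusted p = 2.55e-06). Of 5 genes of the glyoxylate cycle and acetate use, 4 rose in MATa and 5 in MATα-playing-a, including the malate synthase MLS1 (1.69 and 1.40) and the acetyl-CoA synthetase ACS1 (1.14 and 0.90). All 4 other dehydrogenases that feed the chain rose in both strains. NDE2, the minor external NADH dehydrogenase, had 39.8, 43.2 and 39 FPKM in stimulated MATa, against 6.63, 6.42 and 7.79 FPKM in unstimulated MATa, a change of 2.39 (adjusted p = 5.48e-08), and of 2.34 in MATα-playing-a. GUT2, the glycerol 3-phosphate dehydrogenase, rose by 1.81 and 1.60.

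Of 15 other subunits, paralogs and inhibitors of the complexes, 10 rose and 1 fell in MATa (66.7% and 6.67%), where 28.5% and 38.1% of all tested genes did. In MATα-playing-a 11 rose (73.3%), where 29.8% of all tested genes did. STF1, which stabilises the inhibited form of ATP synthase, had 2116, 2040 and 1804 FPKM in stimulated MATa, against 238, 214 and 277 FPKM in unstimulated MATa. That rise of 3.03 (SE 0.11, adjusted p = 1.59e-09) in MATa, and of 3.12 (SE 0.11, adjusted p = 1.16e-09) in MATα-playing-a, exceeded that of any of the 50 members. The inhibitor INH1 and the related STF2, singled out after their values were seen, rose by 0.63 and 2.37 in MATa and by 0.36 and 2.54 in MATα-playing-a. COX26, a small complex IV subunit, had 52.9, 70.3 and 0 FPKM in stimulated MATa and was listed at 0 in all 3 unstimulated MATa libraries. It is among the 10 that rose there (adjusted p = 0.0389), on 2 libraries with values above 0. In MATα-playing-a COX26 had 40.7, 44.6 and 36.9 FPKM in stimulated libraries, against 0, 24.4 and 24.5 FPKM in unstimulated ones, and did not pass (adjusted p = 0.209).

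Of the lists around the building of the chain, the mitochondrial ribosomal protein genes were mostly lower. The list held the 43 such genes with MRPL or MRPS names and left out those with other names. Of these, 0 were called higher, and 35 (81.4%) were called lower in MATa and 29 (67.4%) in MATα-playing-a, where 38.1% and 39.1% of all tested genes were, with medians of -0.38 and -0.32. MRPL8 fell by 0.81 (adjusted p = 2.12e-06) and 0.89 (adjusted p = 9.57e-07), and MRPL15 fell by 0.80 and 0.73. Of 29 assembly factors, 7 were higher and 11 lower in MATa (24.1% and 37.9%), close to the shares of all tested genes (28.5% and 38.1%), and 7 were higher and 15 lower in MATα-playing-a (24.1% and 51.7%, against 29.8% and 39.1%). OXA1, the inner-membrane insertase, had changes of -0.81 (adjusted p = 3.45e-05) and -1.04 (adjusted p = 4.7e-06), and ATP22, needed for ATP synthase assembly, rose by 1.02 and 1.43. Of 19 genes for haem and ubiquinone, 8 rose and 6 fell in MATa (42.1% and 31.6%) and 7 rose and 6 fell in MATα-playing-a (36.8% and 31.6%), with medians of 0.05 and 0.09. Among them COQ6 rose by 0.98 in each strain and CYC3, which attaches haem to cytochrome c, by 1.20 and 1.32. Of 15 mitochondrial carriers, 7 rose and 4 fell in MATa (46.7% and 26.7%), where 28.5% and 38.1% of all tested genes did. In MATα-playing-a 7 rose and 3 fell (46.7% and 20%), where 29.8% and 39.1% of all tested genes did. The pyruvate carrier subunit MPC3 rose by 2.39 and 2.68, and the succinate-fumarate carrier SFC1 by 2.10 and 1.74. All 8 mitochondrially encoded genes that were looked up, subunits of complexes III and IV and ATP synthase among them, were listed at 0 in all 12 libraries.

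**Figure D4:**
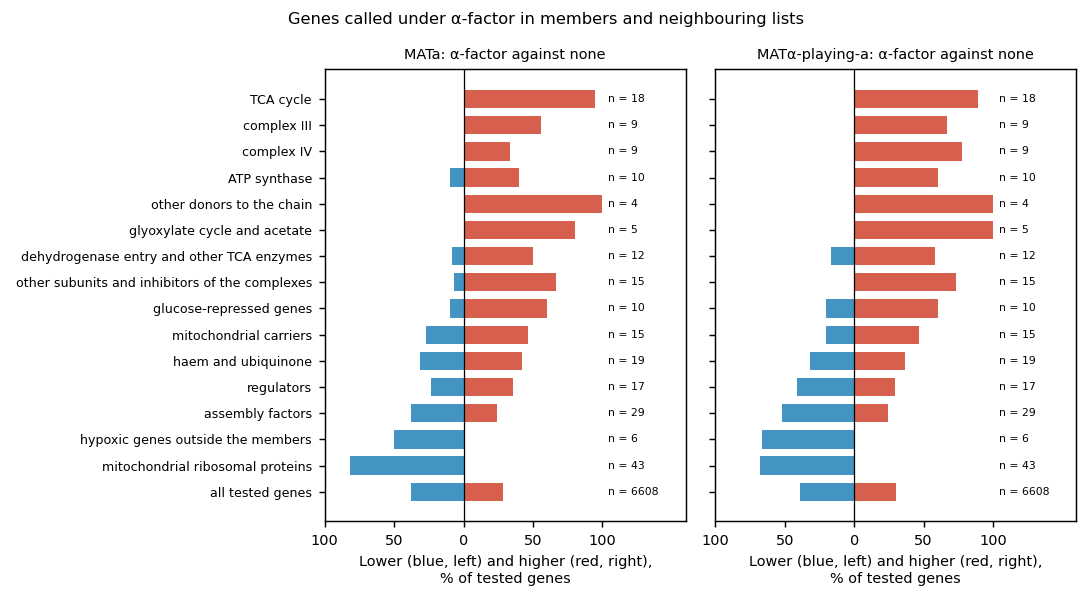
Percent of the tested genes called higher (red, to the right) and lower (blue, to the left) under α-factor, by limma at an adjusted p below 0.05, in MATa (left) and MATα-playing-a (right), for the cycle, 3 complexes and neighbouring gene lists. The number of tested genes stands at each row, and the lowest row gives all 6608 tested genes. The 43 mitochondrial ribosomal protein genes, those with MRPL or MRPS names, have 0 called higher.

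Genes tied to glucose repression and to low oxygen were read beside the members, and no test compared these lists. Of 10 glucose-repressed genes, 6 rose in each strain (60%), where 28.5% of all tested genes rose in MATa and 29.8% in MATα-playing-a, and 1 fell in MATa and 2 in MATα-playing-a. The medians were 1.40 and 0.86. The hexokinase HXK1 rose by 2.56 and 2.04, and the acetate transporter ADY2 by 2.77 and 2.90. Of 6 hypoxic genes outside the members, 0 rose, and 3 fell in MATa (50%) and 4 in MATα-playing-a (66.7%), where 38.1% and 39.1% of all tested genes fell. TIR1, a cell wall mannoprotein of hypoxic cells, had changes of -1.61 (adjusted p = 5.23e-05) and -1.15 (adjusted p = 0.000625), and AAC3, the hypoxic ADP/ATP carrier, of -0.99 and -1.27. The hypoxic isoform genes among the members, COX5B and CYC7, had changes of 1.76 and 1.39 in MATa and of 1.88 and 1.11 in MATα-playing-a.

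Of 17 regulators, 6 rose and 4 fell in MATa (35.3% and 23.5%), where 28.5% and 38.1% of all tested genes did. In MATα-playing-a 5 rose and 7 fell (29.4% and 41.2%), near the shares of all tested genes (29.8% and 39.1%). ADR1 and SIP4, activators of genes for growth without glucose, rose by 1.97 and 1.67 in MATa and by 2.27 and 1.97 in MATα-playing-a. The others in this paragraph were singled out after their values were seen. The activator CAT8 rose by 1.52 and 1.30, and the glucose repressor MIG1 had 151, 163 and 163 FPKM in stimulated MATa, against 268, 250 and 358 FPKM in unstimulated MATa, with changes of -0.85 (adjusted p = 9.84e-05) and -1.30 (adjusted p = 3.35e-06). HAP4, the activating subunit of the Hap complex, had 284, 347 and 275 FPKM in stimulated MATa, against 286, 369 and 213 FPKM in unstimulated MATa. Its changes of 0.09 (adjusted p = 0.684) and -0.24 (adjusted p = 0.259) did not pass, whereas HAP1, the haem-responsive activator, rose by 0.77 and 0.82. RTG2 rose by 0.35 and 0.32, RTG1 had changes of -0.34 and -0.53 that both passed, and RTG3 rose by 0.22 in MATa and had a change of 0.10 in MATα-playing-a. ROX1 had changes of -0.40 and -0.27, which did not pass.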

How the data were processed

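RNA-seq libraries of 4 groups were used, 3 per group, multiplexed in 1 lane per the labels' protocols. The authors deposited FPKM values and gene coordinates for 7126 genes per library. Per the submitters' processing notes, Cufflinks 0.9.3 and TopHat 1.1.4 were used with CASAVA 1.8.2, and the build is not given in the sources used here. The 50 members' coordinates equal those of R64. FPKM times length summed to 5.02 to 5.22 times the total the unit allows in stimulated libraries and to 5.68 to 6.22 times in unstimulated ones. The source of this scaling is unknown, so levels are in the files' own units. The part that its split by treatment has in the members' changes was not tested.

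Values entered as log2(FPKM + 1) for 6608 genes with a mean of at least 1 FPKM. With limma 3.58.1 in R 4.3.3, all 12 libraries entered a single fit with a mean for each group (eBayes with a trend), and a call needed a two-sided p, adjusted by Benjamini-Hochberg across the whole table, below 0.05. It was tested on simulated data. Named in full were all isozymes and up to 2 members of each class with the largest change, and, of each neighbouring list, up to 2 genes with the largest MATa change. The members and lists were chosen with earlier results of these data known. Labels call the replicates biological. Promoter windows were read from R64 with Python 3.11.15. Alternatives covered the pseudocount, filter, scaling, variance trend, replicate number, libraries in the fit and each library left out.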

Additional observations from a re-analysis of the deposited data

How the results depend on the processing

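Of 100 member changes under α-factor, 25 crossed the threshold in some alternative and 0 reversed a call. Members called higher numbered 37 in MATa and 41 in MATα-playing-a after rescaling by median ratios, which moved the median of all genes to -0.01 and -0.00, and 33 in each strain after quantile normalisation. Leaving out 1 library gave 27 to 35 in MATa and 31 to 39 in MATα-playing-a. Members called lower were 0 in MATa under median ratios and 0 to 1 with 1 library left out. In MATα-playing-a they were 1 under quantile normalisation (CYC1), 1 with a replicate block by culture (CYC1), and 0 to 2 with 1 library left out. Median changes ranged from 0.77 to 0.93 for the cycle and from 0.18 to 0.49 for the chain over both strains and all alternatives. The causes were not tested. The labels do not say that equal numbers mark 1 culture, and deviations of same-numbered stimulated and unstimulated libraries correlated at -0.212 to 0.202. With the replicate block, 30 members were called higher in MATa and 38 in MATα-playing-a, and with the block by culture 32 and 39. Unknown depth leaves counting error unmeasured, and 3 libraries per group limit what small changes can be called.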

Other observations

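Mean levels differed between the subunit genes of a complex. FPKM is scaled to gene length, but the files' values sum to more than the unit allows. Levels of different genes are therefore a description in the files' own units. The part that gene length has in them was not tested. In complex III the mean level ran from 1091 FPKM (CYT1) to 2504 FPKM (QCR7) in stimulated MATa and from 727 FPKM (QCR10) to 2086 FPKM (QCR6) in unstimulated MATa. QCR10 was the lowest of the 9 genes in both unstimulated groups and in neither stimulated group. In complex IV the highest member, COX8, stood 4.45 times above the lowest, COX5B, in stimulated MATa and 14.5 times above it in unstimulated MATa, and 4.69 and 13.6 times in stimulated and unstimulated MATα-playing-a. In ATP synthase, ATP3 was the lowest of the 10 genes in all 4 groups, while the highest was ATP15 in both stimulated groups and ATP2 in both unstimulated groups. Among the 4 succinate dehydrogenase genes SDH1 was the lowest in every group, with 433 FPKM in stimulated and 300 FPKM in unstimulated MATa.

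All 28 listed rows of the mitochondrial genome were at 0 in all 12 libraries.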
